A study of Mus musculus with 12 samples.

Results

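Axl, Mertk and Tyro3 are the 3 TAM receptor tyrosine kinases, and Gas6 and Pros1, which encodes protein S, are their 2 ligands. These 5 genes were chosen by name from 19369 genes in the Total tables and 18574 genes in the CD45 tables, and all 5 were found in each of the 12 libraries. They were followed in every annotated cell class and, in most detail, in tumour cells and macrophages. The tumours were grown from 4T1, a mammary carcinoma line of the BALB/c mouse, in the mammary fat pad of female BALB/c mice aged 9 to 11 weeks. The 6 groups were Clone E, Clone EM1, Clone EM2, Clone EM3, Clone M and Parental 4T1. Each of the 5 clones was expanded from a single cell, and the series describes them as covering epithelial, intermediate and mesenchymal states. The hosts shared strain, sex and site, and no other treatment is named. Each group is 1 tumour with 2 libraries: the Total library holds all dissociated cells, and the CD45 library leukocytes taken with magnetic beads. A difference between clones therefore has no replicate check, no test was made between any 2 clones, and all intervals below cover counting error only.

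TAM receptors do not bind dying cells directly. Gas6 and protein S carry a domain that is gamma-carboxylated with vitamin K and attaches to phosphatidylserine exposed on apoptotic cells, while their other end engages the receptor. Gas6 binds all TAM receptors, whereas protein S acts mainly on Mertk and Tyro3. Mertk is best known for the engulfment of apoptotic cells by resident macrophages, Axl for inflamed myeloid cells and for tumour cells in a mesenchymal state, and Tyro3 for the nervous system.

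On the GRCm38 build with GENCODE M21, Axl lies on the minus strand at chr7:25757273-25788705 and Gas6 on the minus strand at chr8:13465374-13494490. Mertk lies on the plus strand at chr2:128698956-128802894, Tyro3 on the plus strand at chr2:119797733-119818104 and Pros1 on the plus strand at chr16:62854307-62929346. The 250 bases before the RefSeq start of 3 genes follow, 5′ to 3′ on the strand of the gene, because these are the 2 receptors and the ligand followed most closely in macrophages. The Axl window is chr7:25788734-25788983, the Mertk window chr2:128698665-128698914 and the Gas6 window chr8:13494536-13494785, all in GRCm38.p6. Capitals mark matches on either strand to the GC box bound by Sp factors, GGGCGG, and in Axl to GAGGAA, the core bound by PU.1, a myeloid regulator.
Axl: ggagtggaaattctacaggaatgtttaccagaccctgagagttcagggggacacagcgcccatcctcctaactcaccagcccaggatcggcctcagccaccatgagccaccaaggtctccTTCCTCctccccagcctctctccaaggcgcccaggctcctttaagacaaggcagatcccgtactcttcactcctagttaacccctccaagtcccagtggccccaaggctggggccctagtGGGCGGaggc
Mertk: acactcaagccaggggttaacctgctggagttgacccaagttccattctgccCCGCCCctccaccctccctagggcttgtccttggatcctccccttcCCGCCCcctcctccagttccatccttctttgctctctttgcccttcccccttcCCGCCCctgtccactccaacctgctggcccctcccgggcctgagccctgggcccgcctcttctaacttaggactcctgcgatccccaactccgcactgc
Gas6: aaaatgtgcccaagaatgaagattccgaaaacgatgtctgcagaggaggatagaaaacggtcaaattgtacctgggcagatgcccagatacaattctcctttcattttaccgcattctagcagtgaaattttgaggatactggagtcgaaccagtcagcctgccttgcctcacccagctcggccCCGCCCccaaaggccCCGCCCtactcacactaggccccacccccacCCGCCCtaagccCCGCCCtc

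The GC box had 1 match in the Axl window, 3 in Mertk and 4 in Gas6, and 3 and 5 in the windows of Tyro3 and Pros1. At least 1 match was present in 32.7% of 32851 mouse promoter windows of that length. The PU.1 core occurred once, in Axl, and in 23.3% of all windows. Searches on both strands for the AP-1 site TGANTCA, the Maf half-site TGCTGA and the LXR direct repeat gave 0 matches in all 5 windows, against 6.75%, 16.1% and 0.0152% of windows. These are matches of letters only.

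The libraries held 28083101 to 122055131 UMIs, unique molecular identifiers that each mark 1 captured RNA molecule, over 6709 to 13467 cells. After 2958 of 115612 cells had been called doublets, annotated tumour cells numbered 776 in the Total library of Clone E and 1921 to 5872 in the other tumours. Macrophages numbered 1216 to 3937 per Total library and 2497 to 5072 per CD45 library. All 10 macrophage markers were detected in the macrophages of every library, with a summed level of 10118 to 18818 CPM, the UMIs of a gene scaled by all UMIs of the same cells. Tumour cells held 1860 to 6209 CPM of 4 keratin and Epcam markers, and this summed level is itself part of the epithelial state that differs between clones. Barcodes showed that some libraries shared droplets: any 2 of the 4 libraries of Clones E and EM3 had 15.05% to 16.66% of droplet barcodes of the smaller in common. Clones EM1 and EM2 formed another such set with 12.19% to 14.01%, while Clone M and Parental 4T1 each shared droplets only between their own 2 libraries, and pairs across sets had at most 1.915% in common. Clones E and M therefore differ in droplet set as well as in clone, and these cannot be told apart. Pairs of libraries with the same sample barcode in different sets shared up to 189 whole cell barcodes. The classes were annotated by the authors from the same counts, so differences between classes are given as descriptions.

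Axl, the receptor that binds Gas6 most tightly, was carried by tumour cells, macrophages and fibroblasts alike. Other myeloid cells of the CD45 libraries carried it at 620 to 865 CPM. In tumour cells its level was 458 CPM for Clone E, 794 for EM1, 609 for EM2, 939.8 for EM3, 1070.2 for M and 644 for Parental 4T1. Clone E was lowest and Clone M highest, and no 2 neighbours in this order had counting intervals of their ratio that included 1. Clone M stood 2.34-fold (2.24 to 2.44) and Clone EM3 2.05-fold (1.97 to 2.14) above Clone E, the latter within 1 droplet set. A UMI of Axl was found in 77.1% of tumour cells in Clone E and in 93.6% to 98.4% in the other tumours, at median depths of 6419 and 9650 to 15262 UMIs per cell. With every cell thinned to 1000 UMIs the share was 33.9% in Clone E, 43.1% to 58.3% in EM1, EM2, EM3 and Parental 4T1, and 62.3% in M. T and NK cells of the same libraries, taken as the low class, held 90.4 to 253.5 CPM, and 9.28% to 23.8% of them had a UMI after the same thinning. The tumour-cell level was above that of T and NK cells in all 6 tumours, by 2.54-fold in Parental 4T1 to 7.01-fold in EM1.

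Macrophage RNA in these droplets also differed between tumours. The summed level of the 10 macrophage markers in tumour-cell droplets was 429 CPM for Clone E, 84.0 for EM1, 109.6 for EM2, 252 for EM3, 133 for M and 124 for Parental 4T1. This level was highest in Clone E, where Axl was lowest. Among the other tumours it was highest in EM3 and then M, which had the most Axl. Among tumour cells with no UMI of Ptprc, Csf1r or the C1q genes, Axl was 407 CPM over 212 cells in Clone E, 954 over 178 cells in EM3 and 1083 over 1804 cells in M. Clone E remained below EM3 and EM3 below M among these cells, and the part of macrophage RNA in the Axl difference was not tested.

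**Figure D1:**
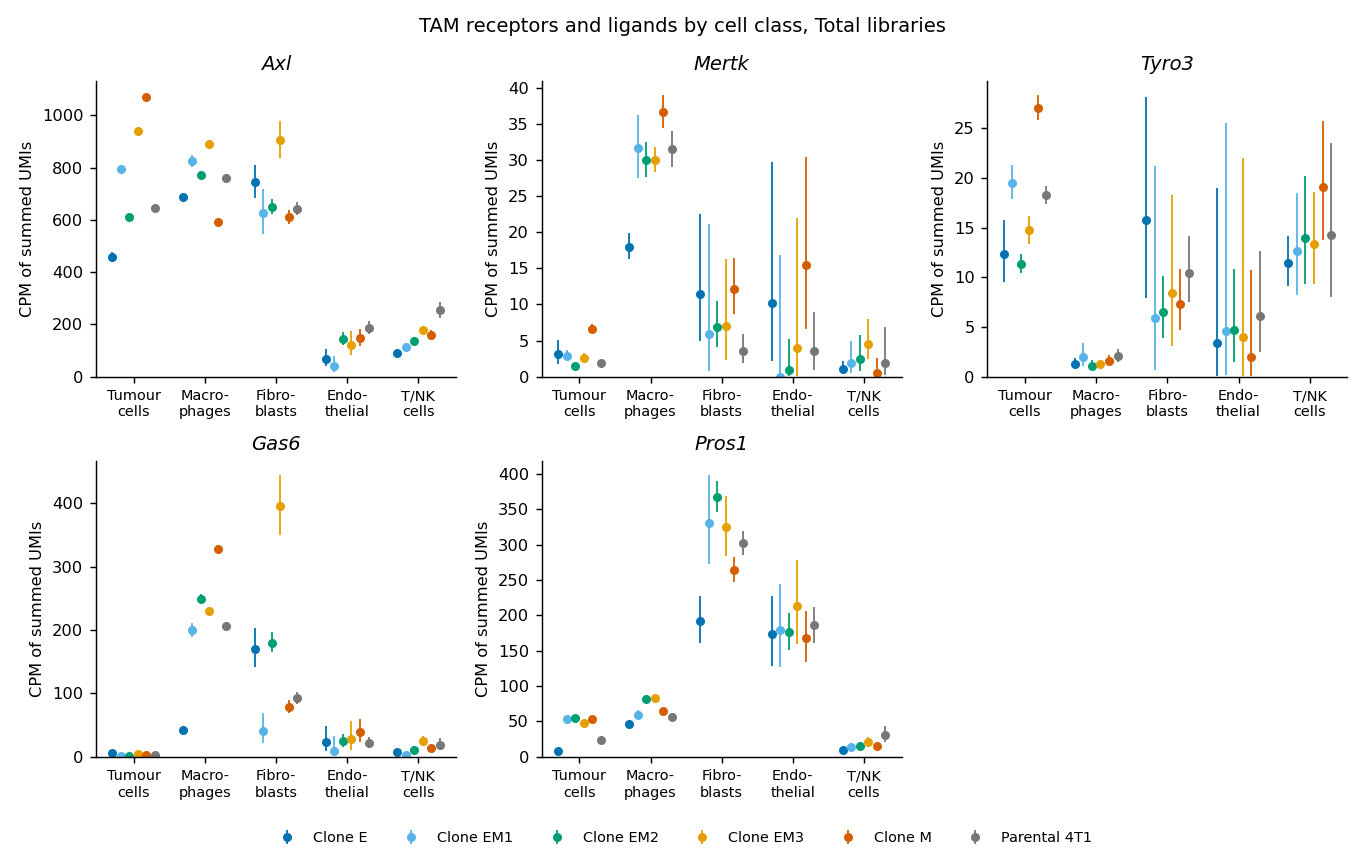
Level of each gene (CPM of summed UMIs, linear axes) in 5 cell classes of the Total libraries, with 1 point per tumour in its colour and exact Poisson intervals as bars. Axl is high in tumour cells, macrophages and fibroblasts, Gas6 and Mertk in macrophages with Gas6 also in fibroblasts, and Pros1 in fibroblasts and endothelial cells.

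In macrophages, the cells in which Axl was carried at a comparable level, the tumours were ordered differently. The CD45 libraries gave 743 CPM for Clone E, 856 for EM1, 805 for EM2, 741 for EM3, 605 for M and 704 for Parental 4T1. The Total libraries gave 687, 824, 773, 891, 592 and 761 CPM in the same order. Clone M, highest for Axl in tumour cells, was lowest in macrophages of both libraries, at 0.81-fold (0.80 to 0.83) of Clone E in the CD45 and 0.86-fold (0.84 to 0.88) in the Total libraries. The 2 libraries did not give the same place to Clone EM3, whose macrophages were at 1.00-fold (0.98 to 1.01) of Clone E in the CD45 and 1.30-fold (1.27 to 1.32) in the Total libraries. Tumour RNA in the droplets was followed with the keratin and Epcam markers. They summed to 47.7 to 187 CPM in macrophages of the Total libraries and 2.20 to 4.52 CPM in those of the CD45 libraries. In Total-library macrophages with no UMI of Epcam, Krt8 or Krt18, Axl was 693 CPM in Clone E and 886 in EM3. Fibroblasts held 612 to 906 CPM of Axl, with 371 to 2234 CPM of macrophage markers in the same droplets.

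Mertk, the receptor of efferocytosis, was carried by macrophages and by other myeloid cells of the CD45 libraries. Those other myeloid cells held 15.99 to 37.46 CPM, above T cells beyond counting error in 6 of 6 tumours. In macrophages the CD45 libraries gave 19.7 CPM for Clone E, 34.6 for EM1, 28.5 for EM2, 24.5 for EM3, 35.9 for M and 30.3 for Parental 4T1. The Total libraries gave 18.0, 31.7, 30.03, 30.02, 36.7 and 31.5 CPM. Clone E was lowest and Clone M highest in both. Clone M over EM1, the next in both, was 1.04-fold (0.93 to 1.16) and 1.16-fold (0.995 to 1.35), so these did not differ beyond counting error. Clone M stood 1.82-fold (1.63 to 2.02) above Clone E in the CD45 libraries and 2.04-fold (1.81 to 2.30) in the Total libraries, and Clone EM3 1.24-fold (1.13 to 1.37) and 1.67-fold (1.48 to 1.88). Among the other 5 tumours of the Total libraries no neighbours differed beyond counting error. Macrophages exceeded T cells by 5.55-fold to 21.3-fold in the CD45 libraries, where T cells had 1.34 to 6.47 CPM. Tumour cells held 1.42 to 6.62 CPM of Mertk, with Clone M highest, and macrophages 5.54-fold to 21.2-fold as much. The tumour-cell level lay above that of T and NK cells beyond counting error in 2 of 6 tumours. In tumour cells with no UMI of the macrophage genes named above, Mertk was 7.06 CPM in Clone M and 1.53 to 3.07 CPM in the other 5 tumours.

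Tyro3 was the TAM receptor of lowest level in macrophages. Tumour cells held 12.3 CPM for Clone E, 19.5 for EM1, 11.4 for EM2, 14.7 for EM3, 27.0 for M and 18.3 for Parental 4T1. Clone M was highest, at 2.19-fold (1.71 to 2.86) of Clone E, while EM3 did not differ from E, nor E from EM2, beyond counting error. Macrophages of the same libraries held 1.11 to 2.05 CPM, and the tumour cells were above them in 6 of 6 tumours. T and NK cells had 11.4 to 19.1 CPM, and the interval of the tumour-cell level over theirs lay above 1 in only 2 tumours. The level in T and NK cells was not common to all classes, since macrophages lay below it beyond counting error in 6 of 6 tumours.

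Gas6 had its highest levels in macrophages and fibroblasts, with the largest differences between tumours among the 5 genes in macrophages. The CD45 libraries gave 52.3 CPM for Clone E, 220.3 for EM1, 242 for EM2, 159 for EM3, 335 for M and 192 for Parental 4T1. The Total libraries gave 41.6, 200.4, 249, 230.2, 328 and 206 CPM. Clone E lay far below the other 5 tumours in both, and Clone M was highest in both. Clone M exceeded Clone E 6.41-fold (6.08 to 6.75) in the CD45 and 7.88-fold (7.34 to 8.45) in the Total libraries. Clone EM3, in the same droplet set as Clone E, exceeded it 3.04-fold (2.88 to 3.20) and 5.53-fold (5.16 to 5.94). A UMI of Gas6 was found in 15.4% of CD45-library macrophages in Clone E and in 35.4% to 57.8% in the others, or 3.31% against 10.7% to 19.6% after thinning. T cells of these libraries, at median depths of 978 to 1722 UMIs against 5116 to 7664 in macrophages, had 7.60 to 33.6 CPM, and 0.665% to 2.33% of them had a UMI after thinning.

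Macrophages held 76.9% (Clone E) to 95.4% (EM1) of all Gas6 UMIs in the Total libraries, although they held only 17.5% to 52.8% of all UMIs. These shares depend on which cells were recovered, and in a sum over cells fewer cells of a type and less RNA per cell cannot be told apart. Fibroblasts, at 52 to 258 cells per library, had 170.4 CPM for Clone E, 41.1 for EM1, 180.1 for EM2, 395 for EM3, 78.7 for M and 92.5 for Parental 4T1. Fibroblasts of Clone EM3 were highest and those of EM1, with 14 UMIs, lowest, so their order did not follow that of the macrophages. Tumour cells had 5.58, 1.35, 1.90, 4.81, 2.76 and 2.38 CPM of Gas6, which was below T and NK cells of the same library in 6 of 6 tumours and is read as background.

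**Figure D2:**
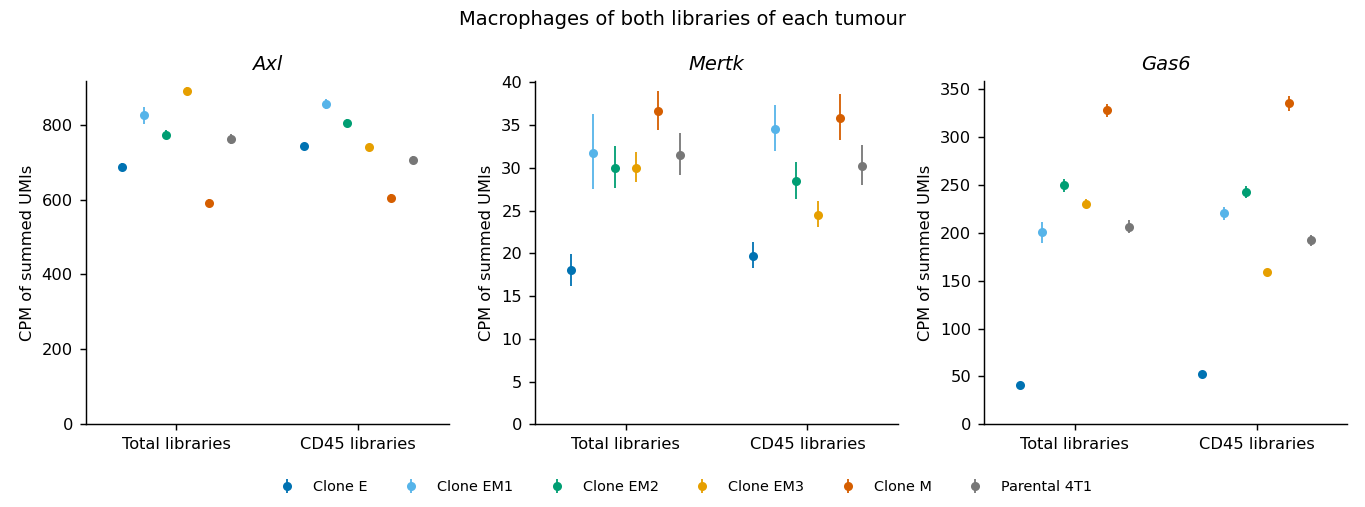
Axl, Mertk and Gas6 in macrophages (CPM of summed UMIs, linear axes from 0) of the Total and CD45 libraries, with 1 point per tumour and exact Poisson intervals as bars. Clone E is lowest for Mertk and Gas6 in both libraries, and Clone M is highest for these and lowest for Axl.

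Macrophages of these tumours differ in Mrc1, the mannose receptor, and Arg1, arginase, and the tumours held unlike mixtures. After thinning, 9.86% of CD45-library macrophages in Clone E had a UMI of Mrc1 without Arg1 and 40.2% one of Arg1 without Mrc1, against 29.3% and 18.8% in Clone M. Gas6 was therefore read within each of the 4 combinations. In CD45-library macrophages with Mrc1 and no Arg1 it was 106 CPM for Clone E, 288 for EM1, 275 for EM2, 214 for EM3, 432 for M and 252 for Parental 4T1. In those with Arg1 and no Mrc1 it was 11.8, 124, 102, 64.5, 116 and 72 CPM. Clone E was lowest for Gas6 in 8 of 8 combinations of subset and library, and Clone M highest in 7. These combinations divide the macrophages of 1 tumour per clone, so they are not separate checks. Lack of a UMI after thinning does not show that a cell lacked Mrc1 or Arg1 RNA. Within the first subset of the CD45 libraries Clone M exceeded Clone E 4.06-fold (3.03 to 5.54). Within the second it did so 9.79-fold (5.95 to 16.6), on 24 UMIs in Clone E. The Total libraries gave 3.95-fold (2.91 to 5.48) and 5.24-fold (3.50 to 7.95), with Clone E at 29.1 CPM in the second subset. There EM1 over Clone E was 1.87-fold (0.79 to 3.93), so these did not differ beyond counting error, while the intervals of the other tumours lay above 1. The part of the mixture in the whole-class difference was not tested. Mertk was lowest in Clone E in 6 of the 8 combinations but highest in Clone M in only 2. Its level in M over E in the CD45 libraries was 2.23-fold (0.98 to 5.69) with Mrc1 only, 1.74-fold (0.87 to 3.32) with Arg1 only, 1.37-fold (0.73 to 2.52) with both and 2.51-fold (1.25 to 5.21) with neither, so that 3 of the 4 intervals included 1. The same order in the Total libraries gave 2.40-fold (0.98 to 7.09), 2.36-fold (1.13 to 4.90), 1.41-fold (0.74 to 2.73) and 3.32-fold (1.35 to 9.30). There the intervals with Arg1 only and with neither lay above 1. Axl was lowest in Clone E in 0 of 8. Its level in M over E in the CD45 libraries was 0.93-fold (0.81 to 1.05) with Mrc1 only, 0.49-fold (0.40 to 0.60) with Arg1 only, 0.56-fold (0.49 to 0.63) with both and 1.11-fold (0.96 to 1.28) with neither. In the Total libraries it was 0.96-fold (0.84 to 1.10), 0.81-fold (0.68 to 0.95), 0.64-fold (0.56 to 0.72) and 0.98-fold (0.85 to 1.12). The lower Axl of Clone M was thus beyond counting error in the macrophages with Arg1 in both libraries, and not in those without.

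**Figure D3:**
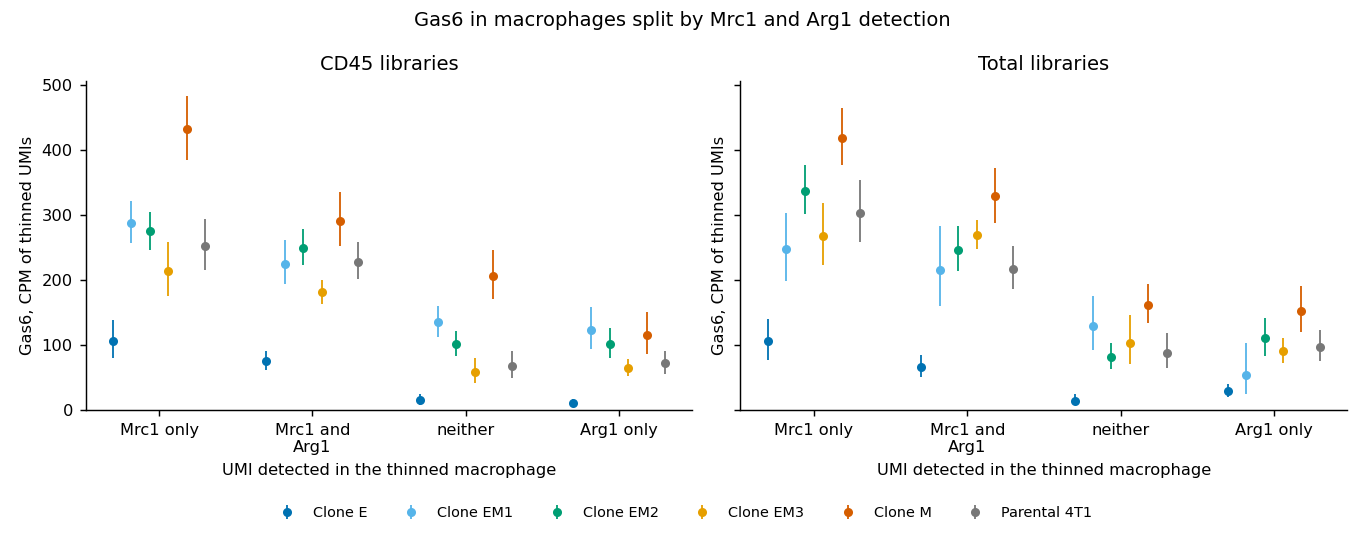
Gas6 (CPM, linear axis) in macrophages thinned to 1000 UMIs and split by detection of Mrc1 and Arg1, for CD45 (left) and Total (right) libraries, with 1 point per tumour and exact Poisson intervals as bars. Clone E is lowest in all 8 groups of points, at 106 CPM in the Mrc1-only and 11.8 CPM in the Arg1-only macrophages of the CD45 libraries.

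Pros1, the gene of protein S, had its highest levels in stromal cells. Fibroblasts held 192 to 368 CPM and endothelial cells 168 to 213 CPM in the 6 tumours, against 9.36 to 31.3 CPM in T and NK cells. In tumour cells it was 8.86 CPM for Clone E, 53.1 for EM1, 54.6 for EM2, 48.4 for EM3, 53.3 for M and 23.1 for Parental 4T1. Clone E stood apart at the low end with Parental 4T1 next, and EM2, M and EM1, in that order at the top, did not differ between neighbours beyond counting error. Clone M exceeded Clone E 6.01-fold (4.50 to 8.23) on 46 UMIs in Clone E, and EM3 exceeded it 5.46-fold (4.07 to 7.49). The levels in Clone E and Parental 4T1 were not above those of T and NK cells, 9.36 and 31.3 CPM, so the folds against Clone E start from background. After thinning, 0.527% of tumour cells in Clone E and 2.26% in Parental 4T1 had a UMI, against 3.70% to 5.24% in the other 4. In macrophages Pros1 was 45.4, 66.8, 70.0, 67.5, 57.5 and 51.0 CPM in the CD45 libraries, a narrower range in which Clone E was again lowest.

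Tumours were then compared with Clone E over all genes at 50 CPM or more in either tumour, counting those past a 2-fold difference on the log2(CPM + 10) scale. Axl in EM3 and Axl and Pros1 in M were past the limit upwards in tumour cells. For Axl in EM3 the difference of 1.02 on the log2 scale lay at the limit, and with cells thinned to 1000 UMIs it was 0.996 and no longer past it. Of all genes so compared, 3.79% in EM3 and 6.56% in M were past it upwards, and 6.93% and 8.18%, but no measured member, downwards. Pros1 alone was past it upwards in EM1 and EM2, where the background was 3.71% and 3.74%, and Axl, the only member measured in Parental 4T1, was not past it there, where the background was 2.95%. Pros1 was under 50 CPM in both tumours for EM3 and Parental 4T1, which left it out of these comparisons, and entered the others only through the tumours in which it was high, so these counts do not support its difference. In CD45-library macrophages Gas6 alone was past the limit, upwards, in each of the 5 tumours against Clone E. The share of all genes past it upwards was 2.02% (EM1), 1.43% (EM2), 0.602% (EM3), 3.21% (M) and 1.28% (Parental 4T1), and downwards 0.680% in EM3 and 3.64% in M. Total-library macrophages also gave Gas6 alone upwards in each, against 2.05%, 1.79%, 1.42%, 3.44% and 2.35% of all genes upwards, and 1.60% downwards in EM3 and 3.87% in M. There Gas6 was under 50 CPM in Clone E and entered only through the other tumour, so that count does not support its difference either. Mertk and Tyro3 stayed under 50 CPM in both cell groups and were not measured by this rule. The 5 comparisons share the Clone E sample.

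The EMT score of the tumour cells, set without Axl, is 11 mesenchymal genes less 13 epithelial genes, each set averaged on the log2(CPM + 10) scale. It was −1.58 for Clone E, 1.48 for EM1, 2.06 for EM2, 3.20 for EM3, 2.49 for M and 1.10 for Parental 4T1. Over the 6 tumours Axl in tumour cells gave Pearson's r = 0.847 with this score, with an exact permutation p of 0.0264 (two-sided, 720 pairings) and 0.0729 after Benjamini-Hochberg adjustment over the 5 genes. Spearman's rho was 0.771, with an exact p of 0.103, adjusted 0.514. Pros1 gave r = 0.900 with an exact p of 0.0292, adjusted 0.0729, and rho = 0.60 with an exact p of 0.242, adjusted 0.604. Its levels in Clone E and Parental 4T1, the tumours of lowest score, were not above those of T and NK cells. Mertk, Tyro3 and Gas6 gave r of 0.118, 0.351 and −0.365, with exact adjusted p of 0.793, 0.641 and 0.641 and rho of −0.029, 0.20 and −0.029 with exact adjusted p of 1. No relation passed 0.05 after adjustment, and the smallest p that 6 tumours allow is 0.00278. With the 2 tumours of most extreme score left out, Clones E and EM3, r was 0.597 for Axl and 0.742 for Pros1 over the other 4. Only the set of E with EM3 and that of EM1 with EM2 hold 2 tumours, so no value within a droplet set was possible.

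**Figure D4:**
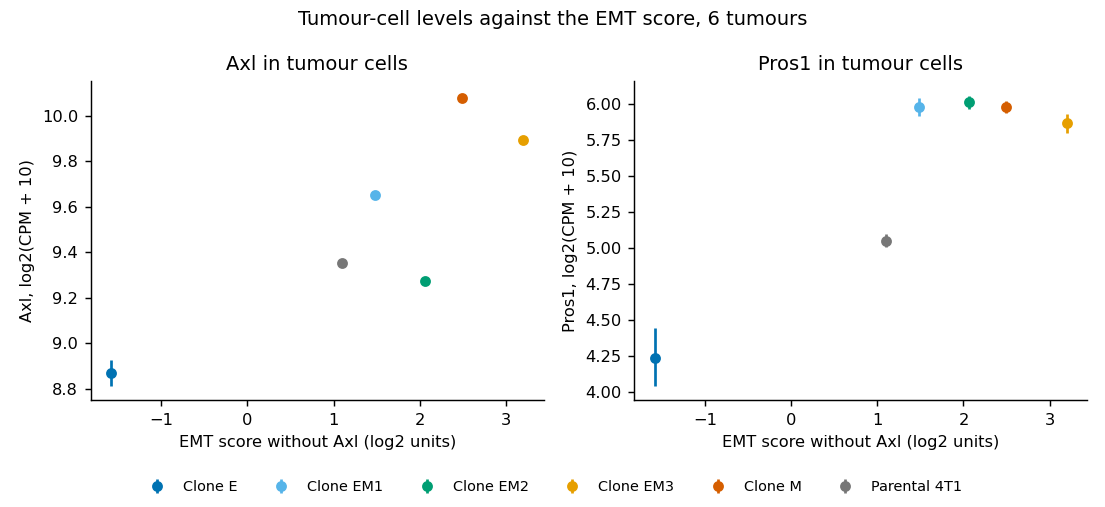
Level of Axl (left) and Pros1 (right) in tumour cells on the log2(CPM + 10) scale against the EMT score set without Axl, with 1 point per tumour and exact Poisson intervals as bars. Clone E, with a score of −1.58, is lowest for both, and Pros1 is nearly level among EM1, EM2, EM3 and M.

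Other genes of apoptotic-cell recognition were read by the same 2-fold rule against Clone E. Of 20 other receptors and bridging proteins, 8 were measured in tumour cells for both contrasts, of which 1 was past the limit upwards and 1 downwards in EM3, and 3 upwards and 3 downwards in M. Over all genes 3.79% were past it upwards and 6.93% downwards in EM3, and 6.56% and 8.18% in M. Their median difference was −0.14 in EM3 and 0.03 in M on the log2 scale, beside 0.02 and 0.11 over all genes. Lrp1, an endocytic receptor for apoptotic cells, was at 302 CPM in Clone E, 1087 in EM3 and 979 in M. Anxa1, which encodes annexin A1, a protein that promotes the clearance of inflammatory cells, was at 1605, 639.6 and 622 CPM. Mfge8, a bridging protein between phosphatidylserine and integrins, was at 222, 244 and 495 CPM, and Itgb5, an integrin subunit that pairs with Itgav, at 119, 101 and 281 CPM. C1qa and C1qb, complement genes of macrophages, were past the limit downwards in M, C1qa at 110.1 and 34.7 CPM and C1qb at 75.3 and 20.6 CPM in Clones E and M, beside the summed macrophage markers given above. Both were under 50 CPM in M and entered only through Clone E, where they were high, so their count does not support a difference. What part these transcripts have in the other differences was not tested.

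In CD45-library macrophages 13 of the 20 were measured, of which 1 was past the limit upwards and 1 downwards in EM3, and 1 upwards and 2 downwards in M. Over all genes 0.602% were past it upwards and 0.680% downwards in EM3, and 3.21% and 3.64% in M. Their median was 0.19 and 0.34, beside 0.05 and 0.17 over all genes. Stab1, stabilin-1, a scavenger receptor that recognises phosphatidylserine, was at 94.8 CPM for Clone E, 339 for EM1, 339 for EM2, 268 for EM3, 501 for M and 255 for Parental 4T1. Like Gas6, it was lowest in Clone E and highest in M. Mfge8 was at 97.5, 23.8, 35.1, 34.7, 13.9 and 125 CPM, high in Clone E and Parental 4T1 and lowest in M. It entered both contrasts only through Clone E, so its count does not support a difference. Cd300lf, a phosphatidylserine-binding receptor of myeloid cells, was at 371 CPM in Clone E and 97.3 in M. The Total libraries, with 13 measured, gave 1 upwards and 2 downwards in EM3, beside 1.42% and 1.60% of all genes, and 2 upwards and 2 downwards in M, beside 3.44% and 3.87%. Stab1, Mfge8 and Cd300lf were past the limit there in both contrasts in the directions given for M, and C1qc, a complement gene, was past it upwards in M as well, at 950.3 CPM (Clone E) and 2165 CPM (M).

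The signalling list held 11 genes, of which 10 were measured in tumour cells and 9 in macrophages. In tumour cells Twist1, an EMT factor that is also known as a target of TAM signalling and is part of the score above, was at 182 CPM in Clone E, 456 in EM3 and 396 in M. Ifnar2, a subunit of the type I interferon receptor, through which TAM signalling induces its feedback, was at 41.4, 93.7 and 117 CPM. Both were past the limit upwards in EM3 and M, beside 3.79% and 6.56% of all genes, and 1 other gene of the list was past it downwards in M, beside 8.18% of all genes. Ifnar2 was under 50 CPM in Clone E and entered only through the tumours where it was high, so its count does not support a difference. The median of this list was 0.21 in both contrasts, beside 0.02 and 0.11 over all genes. In CD45-library macrophages 0 of 9 were past the limit in EM3 and 1 downwards in M, beside 3.64% of all genes in M. The medians were −0.16 and 0.01, beside 0.05 and 0.17 over all genes. That gene was Socs3, a suppressor of cytokine signalling, at 551 CPM in Clone E and 167 in M.

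Of 7 regulators of macrophage Mertk, 5 were measured in macrophages, with 0 past the limit in EM3 and 1 upwards in M, beside 0.602% and 3.21% of all genes. Their medians were −0.0028 and 0.23, beside 0.05 and 0.17 over all genes. Maf, a macrophage transcription factor, was at 114 CPM for Clone E, 210.3 for EM1, 202 for EM2, 199.7 for EM3, 277 for M and 233 for Parental 4T1. As for Mertk, whose levels in M and EM1 did not differ beyond counting error, Clone E was lowest and Clone M highest. Nr1h3, the LXR alpha receptor, was under 50 CPM, at 6.09, 22.0, 16.8, 7.72, 26.1 and 9.58 CPM. In tumour cells 3 of the 7 were measured for EM3 and 4 for M, with 1 past the limit downwards in each. Over all genes 6.93% and 8.18% were past it downwards. The medians in tumour cells were −0.12 and −0.36, beside 0.02 and 0.11 over all genes.

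Of 6 genes of phosphatidylserine exposure, 5 were measured in tumour cells, with 1 past the limit downwards in EM3 and 3 in M, beside 6.93% and 8.18% of all genes. Their medians were −0.48 and −1.21, beside 0.02 and 0.11 over all genes. Atp11a, a flippase that returns phosphatidylserine to the inner leaflet, was at 722 CPM in Clone E, 216 in EM3 and 172 in M. Ano6, a calcium-activated scramblase, was at 342, 214 and 138 CPM. In macrophages 3 were measured and 0 were past the limit in either contrast.

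The remaining lists did not reach the limit in EM3 or M. These were engulfment machinery with 7 genes measured in tumour cells and 8 in CD45-library macrophages, receptor shedding with 2, the engulfment checkpoint with 2 and 3, and vitamin K dependent carboxylation with 1 at most. Adam17, a protease that sheds Mertk, was at 192 CPM in Clone E macrophages and 262 in those of M. Vkorc1, the vitamin K reductase needed for carboxylation of both ligands, was at 45.6 and 65.6 CPM.

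Genes most like each member were sought over 52 class sums of the Total libraries among 8922 genes with at least 50 CPM in some class. These sums share libraries and depth, and the correlations are a description. For Axl they were Lrp1 (r = 0.93), Itgb5 (0.92), Vegfa (0.91), Pla2g4a (0.88) and Cd63 (0.88). For Gas6 they were Colec12 (0.95), Ctsf (0.92), Myo7a (0.89) and Cd302 (0.86). For Pros1 they were Plod1 (0.91), Copz2 (0.89), Gask1b (0.88), Layn (0.87) and Plpp3 (0.87). Mertk, at most 36.7 CPM, and Tyro3, at most 27.0 CPM, stayed under the minimum.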

How the data were processed

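Single-cell RNA sequencing of 6 tumours gave 12 libraries, and the authors deposited UMI counts for each gene and cell, whole numbers with no normalisation. Per the submitters' processing notes, Cell Ranger and the mm10 genome were used, with no version given, and the chemistry stays unclear because the labels name both a fixed-RNA kit and 3′ reagents. Cell classes are the authors' deposited annotation. The 5 genes, the gene lists and the marker lists were chosen with earlier results of these data known. Doublets were called per library by the Scrublet method (2 simulated pairs per cell, 2000 variable genes, 30 components, expected share 6%) with 1 limit for all libraries, the median of the 12 automatic limits, which took 1.44% to 3.70% of cells per library and left 112654.

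Counts were summed per library and class of at least 20 cells and scaled to CPM. Levels have exact Poisson intervals, shares exact Clopper-Pearson intervals and folds exact conditional-binomial intervals, all at 95% and for counting error only. The gene rule named the 5 members in every class, the 5 most correlated genes of each, and in each pathway list the genes past 2-fold between Clone E and Clone EM3 or M, at most 4 per list by size. Anxa1, C1qa, C1qb, C1qc, Nr1h3, Adam17 and Vkorc1 are outside that rule and were chosen after their values were seen. The fold rule used a minimum of 50 CPM in either sum and a pseudocount of 10. Correlations over tumours were tested by exact permutation. Alternatives were other weighting, thinning to 1000 UMIs, doublets kept, cells without marker UMIs of the other class, median-of-ratios scaling, a pseudocount of 1 and the other library, and the split by Mrc1 and Arg1 was added after the levels had been seen. Calls, intervals and permutation p were tested on simulated data. Python 3.11.15, NumPy 2.4.6, SciPy 1.17.1, pandas 2.3.3, scikit-learn 1.9.0 and matplotlib 3.10.9 were used. Promoter windows are from RefSeq on GRCm38.p6, all 5 genes matched by symbol, and gene spans are from GENCODE M21. Protein sequences were not used here, and some genes that the rule names are not reported here.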

Additional observations from a re-analysis of the deposited data

Results flagged for a closer look

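Summed over each class, Axl moved in opposite directions in tumour cells and macrophages between Clones E and M. On the log2(CPM + 10) scale Clone M was 1.21 above Clone E in tumour cells, and fell by 0.29 against it in CD45-library macrophages and by 0.21 in Total-library macrophages. The tumour-cell difference minus that of CD45-library macrophages was 1.501. With 1 tumour per group this difference was not tested, and the clones also differ in droplet set.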

How the results depend on the processing

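All values are log2 differences unless named otherwise, and the cause of each change was not tested. For Axl in tumour cells, EM3 over E gave 1.02 and M over E 1.21. They were 0.996, which ends the 2-fold call, and 1.11 with thinned cells, 1.21 and 1.39 in cells without macrophage marker UMIs and 1.33 and 1.40 with median-of-ratios scaling. Gas6 in tumour cells, M over E, gave −0.29, with −0.031 in cells without macrophage marker UMIs, −0.81 with a pseudocount of 1, and turned to 0.060 with thinning. Pros1 in tumour cells, M over E, gave 1.75, and 2.46 with a pseudocount of 1. For Axl in macrophages, M over E gave −0.29, with −0.26 as the mean of per-cell CPM, −0.21 with thinning, −0.21 in the Total libraries and −0.60 with median-of-ratios scaling. Mertk in macrophages, M over E, gave 0.63, with 0.74 in the Total libraries, 0.40 with median-of-ratios scaling and 0.83 with a pseudocount of 1. Gas6 in macrophages, M over E, gave 2.47, with 2.35 as the mean of per-cell CPM, 2.71 in the Total libraries, 2.19 with median-of-ratios scaling and 2.66 with a pseudocount of 1. Within thinned CD45-library macrophages with Mrc1 only, Arg1 only, both and neither, chosen after seeing the data, Axl gave −0.11, −0.99, −0.83 and a turn to 0.15. Mertk gave 0.81, 0.55, 0.32 and 0.92, and Gas6 1.92, 2.53, 1.81 and 3.09. Median-of-ratios scaling divided levels by a log2 factor of 0.23 in Clone E tumour cells. In macrophages of the CD45 libraries the factor was −0.15 in Clone E and 0.16 in Clone M. A positive factor lowered all levels of that tumour, and a negative factor raised them. Among other differences against Clone E whose counting interval excluded 0, those that turned were Tyro3 in tumour cells of EM1 (−0.0037) and Gas6 in those of Parental 4T1 (0.085), both with thinning. In Parental 4T1 macrophages Axl (0.15) and Tyro3 (0.10) turned in the Total libraries, Tyro3 (0.011) with thinning and Pros1 (−0.048) with median-of-ratios scaling. Differences whose interval included 0 changed sign in several settings, among them, in EM3, Tyro3 in tumour cells (0.15, and −0.20 without macrophage marker UMIs), Gas6 in tumour cells (−0.073, and 0.20 in the same cells) and Axl in macrophages (−0.0045, and 0.37 in the Total libraries). The correlation of Axl with the EMT score ran from 0.655 without Clone E to 0.946 without EM2, its exact permutation p after adjustment ran from 0.0694 to 0.562 over the alternatives, and it was 0.684 with the mesenchymal genes alone. With a minimum of 10 CPM in place of 50, 10 and not 6 genes of the pathway lists were past 2-fold in tumour cells of EM3. No paired analysis was possible because each group holds 1 tumour and the labels carry no replicate numbers. Depth limits Tyro3 in macrophages, at 0.36 to 0.87 CPM in the CD45 libraries, and Gas6 in tumour cells, at 29 UMIs in Clone E.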

Other observations

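Within the CD45 libraries, Tyro3 was found at higher levels in T cells than in macrophages. As means over the tumours with at least 20 cells, it was 12.7 CPM in Cd44+ Cd4+ T cells, 10.6 in Cd44- Cd4+ T cells, 15.9 in Foxp3+ Cd4+ T cells, 14.6 in Gzmb+ Cd8+ T cells and 19.95 in Mki67+ T cells, on 32 to 46 UMIs each. It was 0.63 CPM in macrophages, on 99 UMIs over 23872 cells, and 0.38 CPM in granulocytes, on 7 UMIs over 13460 cells. The NK subtype of the same annotation had a mean of 10.03 CPM, on 20 UMIs over 832 cells, with 0 UMIs in 2 of 6 tumours. The B cells annotated Cd44-MHCIIhi had 0 UMIs in 1394 cells.

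Pros1 was 59.7 CPM in macrophages and 70.7 in other myeloid cells as means over the 6 tumours, and 25.0 in dendritic cells. In the Cd44+ Cd4+, Cd44- Cd4+ and Gzmb+ Cd8+ T cells the means were 14.5, 11.8 and 17.1 CPM. The NK subtype had 32.5 CPM, on 60 UMIs over 832 cells. However, the class annotated NK in the same libraries had a median of 0 and at most 8.18 CPM of Pros1. The 32.5 CPM is therefore not a level shared by both NK annotations. Axl in dendritic cells of the CD45 libraries was 354 CPM for Clone E, 261 for EM1, 167 for EM2, 322 for EM3, 58.9 for M and 218 for Parental 4T1, lowest in Clone M, over 92 to 309 cells. In the Total libraries it was 173, 36.7, 209.99, 227, 94.9 and 257 CPM in the same order, lowest in EM1 on 8 UMIs. The macrophage markers in these droplets summed to 4418, 5912, 2833, 4798, 994 and 2184 CPM in the CD45 libraries and to 444 to 1607 CPM in the Total libraries, and their part in the difference was not tested. Other myeloid cells held 34.9 CPM of Gas6 for Clone E, 124 for EM1, 139 for EM2, 137 for EM3, 298 for M and 94.5 for Parental 4T1, again lowest in Clone E and highest in M.

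A class annotated Unknown had at least 20 cells in 4 Total libraries. It held 637.5 to 904 CPM of Axl and 113 to 202 CPM of Gas6, with 7010 to 9481 CPM of macrophage markers and 938 to 2220 CPM of keratin and Epcam markers in the same droplets.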
